A study of Mus musculus with 6 samples.

Results

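The genes described here are 10 members of the fibroblast growth factor (FGF) system of the lung: the ligands Fgf1, Fgf2, Fgf7, Fgf9, Fgf10 and Fgf18 and the receptors Fgfr1, Fgfr2, Fgfr3 and Fgfr4. They were listed by name, and all 10 were found among the 20687 gene symbols of the table. RNA was sequenced from 3 whole lung samples and 3 preparations of the KP cell line, all labelled C57BL/6. The lungs of 3 mice were pooled for each sample, in independent experiments, 28 days after 100000 KP cells were given by tail vein. The cell line samples are triplicates that the labels do not place in separate cultures, so their spread may be technical and the p-values below measure only the spread between these samples. The labels do not give the genotype of the KP line. Lung free of injected cells was not analysed here, so resident lung cells and the cells grown from the injection are read together in every lung sample.

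FGFs are secreted proteins that bind receptor tyrosine kinases at the cell surface together with heparan sulfate, and the receptors signal through the adaptor Frs2 to the Ras and MAP kinase pathway. In the lung, Fgf10 from the mesenchyme acts on epithelial Fgfr2 to drive bud outgrowth and branching, and FGF signals later take part in alveolar growth and in repair. The ligands a receptor binds are set by the third of its immunoglobulin-like loops, whose second part is coded by either of a pair of mutually exclusive exons in Fgfr1, Fgfr2 and Fgfr3. The IIIb form is typical of epithelium and, in Fgfr2, binds Fgf7 and Fgf10; the IIIc form is typical of mesenchyme and binds others such as Fgf2, Fgf9 and Fgf18. Fgfr4 has no such exon pair.

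The IIIb exon of Fgfr2 is shown because it marks the form of the receptor that Fgf7 and Fgf10 bind, and because most of the Fgfr2 counts in lung that could be placed in either form were placed in transcripts holding it. It was read from exon 6 of the transcript Fgfr2-211 in GENCODE M21 (build GRCm38), 5′ to 3′ on the strand of the gene, and no part is set in capitals. No coordinates are given, since the submitters' notes name GRCm39.
Fgfr2 IIIb exon: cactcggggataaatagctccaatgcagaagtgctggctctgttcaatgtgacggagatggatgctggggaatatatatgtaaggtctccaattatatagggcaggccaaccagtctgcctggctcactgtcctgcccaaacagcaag
The IIIb exon of Fgfr2 is 148 bases long and the IIIc exon 145 bases.

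Most of the 10 genes were higher in lung: 7 rose in lung relative to the cell line, none fell, 2 were not called and 1 was too low to be tested. Of the ligands, Fgf1, Fgf7, Fgf10 and Fgf18 rose, and of the receptors, Fgfr2, Fgfr3 and Fgfr4. Levels are CPM, counts scaled to the effective library size, and changes are log2 fold changes, lung minus cell line, with their standard error (SE) and an adjusted p from edgeR's quasi-likelihood test with Benjamini-Hochberg adjustment over 15212 genes, called below 0.05. Of all genes tested, 31.3% were called higher in lung, 17.5% lower and 48.8% in either direction. The CPM ranges of the groups did not overlap for 8 of the 9 members tested, against 62.2% of all genes tested. The median log2 fold change was 4.78 over the 9 members tested and 0.08 over all genes. Fgf7, Fgf10, Fgfr2 and Fgfr4, with 19, 1, 6 and 32 cell line counts, passed the filter through lung alone. Their entry raises that median and the number of members called higher. A filter of 10 or more counts in all 6 samples left 5 members. Their changes were 4.97 (Fgf1), 0.78 (Fgf2), 1.59 (Fgf18), -0.56 (Fgfr1) and 6.06 (Fgfr3). In all 3 lung samples 9 members reached 1 CPM, and in all 3 cell line samples 4 did, Fgf1, Fgf2, Fgfr1 and Fgfr3. Because the lung samples are bulk tissue, fewer cells of a type and less RNA per cell cannot be told apart in any of these values.

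**Figure D1:**
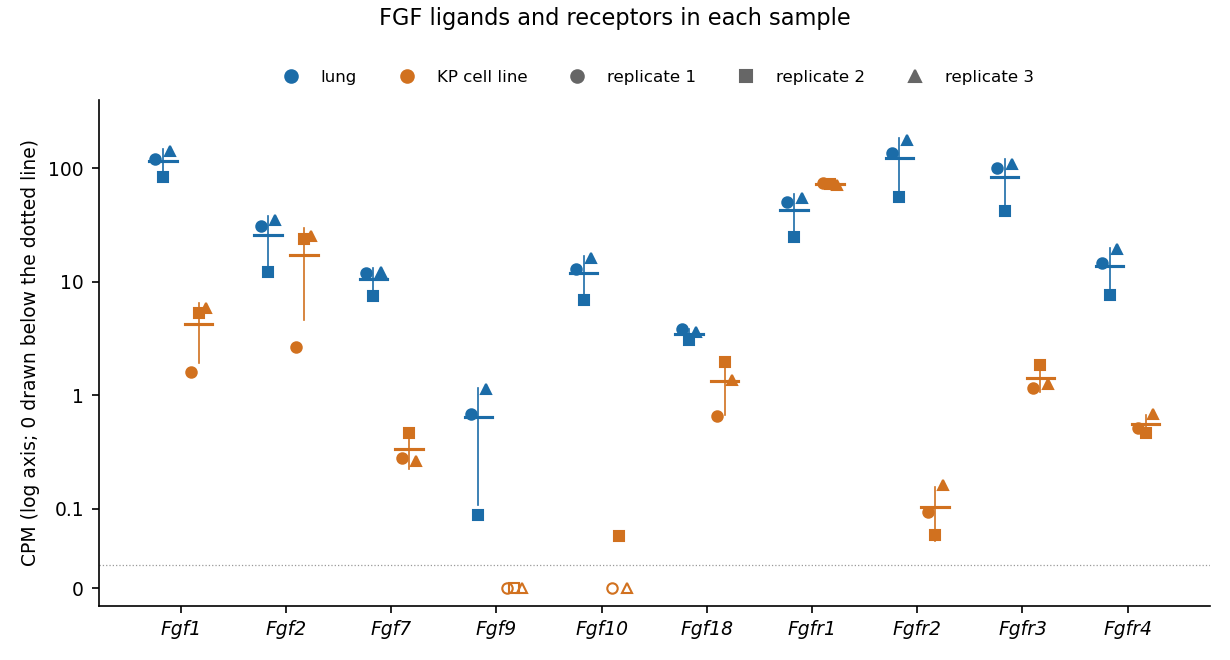
CPM (log axis) of the 6 ligands and 4 receptors in 3 lung samples (blue) and 3 cell line samples (orange), with replicate 1 as a circle, 2 as a square and 3 as a triangle; bars are the mean and thin lines the SD (n = 3), left out where a sample is at 0, and open symbols are 0. The groups are separate for 8 of the 9 tested genes, Fgf2 is the exception, and Fgfr1 is the only gene with higher values in the cell line.

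The libraries differed within the groups. Estimated counts ranged from 17786758 to 22862396 per sample. Lung sample 2 had the lowest lung value for 10 of the 10 members, with a median deviation from its group's median of -1.06 log2 units. Over all genes the same sample was 0.71 higher for the shortest quartile of genes and lower for the longest (-0.96), on the same log2 scale. Cell line sample 1 lay further from its group (median absolute deviation 0.37 log2 units) than samples 2 and 3 (0.21 and 0.23).

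Markers of resident lung cells were read in the lung samples at high levels. The 8 alveolar type 2 markers (which include Sftpc and Sftpb) summed to between 15300 and 21711 CPM in lung, against to between 84.3 and 92.4 CPM in the cell line, where Sftpa1, Sftpd and Slc34a2 were at 0 and Abca3 gave all but 2.69 to 6.62 CPM. Alveolar type 1 markers summed to 1820 to 2099 CPM in lung, against 76.5 to 185 CPM in the cell line, and endothelial markers to 968 to 2148 CPM and 7.44 to 16.1 CPM. Of 8 general epithelial markers, Epcam, Cldn4 and Cldn7 rose in lung and Krt18 fell. Epcam was at 46.7 to 59.3 CPM in lung and 1.92 to 3.00 CPM in the cell line, which is labelled only as KP cells. The sum of the 8, mostly keratins and Cdh1, was 2568 to 4297 CPM in lung and 3381 to 7858 CPM in the cell line. All 8 alveolar type 2, 6 of 7 alveolar type 1 and 8 of 8 endothelial markers rose in lung, beside the receptors below. Their part in the receptor results was not tested.

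Fgf7 and Fgf10, the mesenchymal ligands of the IIIb form of Fgfr2, were read in every lung sample and were at or near 0 in the cell line. Fgf10, which drives lung bud outgrowth, was at 13, 6.95 and 16.1 CPM in lung samples 1, 2 and 3, and the 3 cell line samples held 0, 1 and 0 counts (0, 0.0576 and 0 CPM). Lung therefore had 683 times the level by counts (95% interval of counting error 122 to 27017), and the fitted change was 9.0 (SE 0.78, adjusted p = 6.7e-05). The fitted value rests on the prior count and moved to 10.98 without cell line sample 2, which held the only count. Fgf7, also called keratinocyte growth factor, was at 12.0, 7.52 and 12.3 CPM in lung, against 0.280, 0.461 and 0.263 CPM in the cell line. No cell line sample came near the lowest lung value. The change of Fgf7 was 4.97 (SE 0.43, adjusted p = 6.73e-05), and the count ratio was 32.1 (20.4 to 53.6) on 19 cell line counts.

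Fibroblast markers were mostly higher in lung, as these ligands were. Of 9 fibroblast markers (Col1a1, Dcn and Pdgfra among them), 8 rose in lung; the list summed to 1176 to 3495 CPM in lung, against 407 to 917 CPM in the cell line, with Lum at 0 there. Npnt alone made up 382 to 903 CPM of the cell line sums, and the other 8 markers came to 15.0 to 24.8 CPM there and 978 to 2938 CPM in lung. Smooth muscle and pericyte markers rose in 7 of 7 cases, at 382 to 479 CPM against 13.2 to 15.7 CPM. Their part in the ligand results was not tested.

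Fgf1, acidic FGF, which can bind each of the FGF receptors, was the ligand with the highest level in lung. It was read at 121, 82.8 and 142 CPM in lung, against at 1.59, 5.26 and 5.80 CPM in the cell line. The groups stood well apart, with means of 115 ± 30.2 (SD, n = 3) and 4.21 ± 2.29 CPM and a change of 4.78 (SE 0.53, adjusted p = 0.000191). Within the cell line, sample 1 was the lowest.

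Fgf2, basic FGF, was the only member whose groups overlapped. Its values were 30.7, 12.2 and 34.9 CPM in lung, against 2.66, 23.5 and 25.1 CPM in the cell line. Lung sample 2 and cell line sample 1 were the low values of their groups, and the other 2 cell line samples lay between the lung values. The change of 0.60 (SE 0.73) did not pass the test (adjusted p = 0.527), and it was 0.08 (adjusted p = 0.898) without cell line sample 1. With both low samples left out, the change was 0.43 and passed the test (adjusted p = 0.0154), on 2 samples a group. In the annotation an exon of Nudt6 lies opposite Fgf2 on the other strand; Nudt6 was at 5.05 to 7.70 CPM in lung, against 3.65 to 5.0 CPM in the cell line. Whether strand was used in the quantification is not given in the sources used here, so reads of the overlap cannot be assigned with certainty. The same limit holds for Fgf10, Fgfr1 and Fgfr3, which lie opposite exons of Gm16263, Gm16159 and G630022F23Rik. None of these opposite genes was in the table, so they have no level to print.

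Fgf9 and Fgf18 had the lowest CPM of the ligands in lung. Fgf9, made by epithelium and mesothelium in the developing lung, had 17, 2 and 22 counts in lung (0.679, 0.0885 and 1.14 CPM) and none in any cell line sample, where 0 counts allow up to 0.140, 0.173 and 0.158 CPM. Set against 3 counts over the whole cell line group, Fgf9 was at least 11.8-fold higher in lung. Fgf9 was below the expression filter and so had no test, and lung sample 2 alone was within the range that 0 counts allow in the cell line. Of 6 mesothelial markers 5 rose in lung, where these summed to 71.3 to 174 CPM, against 1.21 to 1.42 CPM in the cell line. Msln, the other one, fell, from 600.0 to 912 CPM in the cell line to 122 to 210 CPM in lung. Their part in the Fgf9 values was not tested.

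Fgf18, a ligand with a role in alveolar development, was at 3.8, 3.05 and 3.58 CPM in lung, against 0.653, 1.96 and 1.37 CPM in the cell line. Every lung value was above every cell line value, and the change was 1.39 (SE 0.47, adjusted p = 0.0398). That call was the least firm of the 7: it was lost with no filter on low counts (adjusted p = 0.0552), which tests more genes, and when any library but cell line sample 2 was left out. The adjusted p was then 0.124, 0.0541 and 0.0835 without lung samples 1, 2 and 3, and 0.0523 and 0.106 without cell line samples 1 and 3.

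Fgfr2, the receptor that lung bud growth depends on, rose strongly. It was read at 135, 56.0 and 177 CPM in lung, and at 0.0933, 0.0586 and 0.161 CPM in the cell line, which held 2, 1 and 3 counts. The count ratio was 1158 (95% interval of counting error 532 to 3156) and the fitted change 10.12 (SE 0.67, adjusted p = 3.06e-05). Lung samples held 3375, 1267 and 3401 counts, while the cell line was at or near the limit of detection.

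Fgfr3 and Fgfr4, which act together in alveolar elastin formation in the mouse, rose as well. Fgfr3 was at 99.9, 42.2 and 109 CPM in lung, against 1.17, 1.84 and 1.26 CPM in the cell line, a change of 5.88 (SE 0.48, adjusted p = 5.26e-05). Fgfr4 was at 14.7, 7.65 and 19.2 CPM in lung, against 0.513, 0.461 and 0.685 CPM in the cell line, a change of 4.63 (SE 0.47, adjusted p = 0.000129). A single transcript, Fgfr4-201, held 98.99% or more of Fgfr4 in each lung sample. Neither gene had a cell line sample near the lung range, and in both lung sample 2 was the lowest of its group.

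Fgfr1, the receptor most tied to mesenchymal cells, was the only member with higher values in the cell line. It was at 50.2, 24.8 and 54.1 CPM in lung, against 73.9, 72.3 and 70.2 CPM in the cell line. The ranges did not overlap, and the means were 43.0 ± 15.9 and 72.1 ± 1.87 CPM (SD, n = 3). The change of -0.75 (SE 0.32) did not pass the test (adjusted p = 0.0862). Without lung sample 2, the lowest, the change was smaller (-0.53) and passed it (adjusted p = 0.0189); leaving out any other library left it uncalled.

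With library size alone in place of TMM factors, the median change of all genes moved from 0.08 to 0.31, and the calls over all genes from 4758 higher and 2664 lower to 5210 and 1728. The members stayed at 7 higher and 0 lower, and the change of Fgfr1 was -0.51.

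The receptor genes can be compared with each other on a per-length scale, on which counts are divided by annotated transcript length and scaled to the same total in every sample, as in TPM. In lung, Fgfr2 was the most abundant receptor, at 97.0, 30.2 and 138 TPM-like units, followed by Fgfr3 at 55.8, 15.4 and 62.8 and Fgfr1 at 27.5, 9.997 and 31.5. Fgfr4 was lowest at 9.38, 3.46 and 12.3. The ranges of neighbours overlapped because lung sample 2 was low for all 4 receptors, but the order Fgfr2, Fgfr3, Fgfr1, Fgfr4 was the same in each of the 3 lung samples. That order rests in lung sample 2 on Fgfr2-217, a transcript described below: without it Fgfr2 was at 59.6, 10.2 and 81.8 TPM-like units, still highest in samples 1 and 3 but below Fgfr3 in sample 2. In the cell line Fgfr1 was at 37.1, 34.8 and 33.9 TPM-like units, and the next receptor, Fgfr3, was below 1 in every sample.

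Expressed as shares of the 4 receptors on the per-length scale, Fgfr1 made up 97.8%, 96.9% and 97.1% of receptor RNA in the cell line and 14.5%, 16.9% and 12.9% in lung. Fgfr2 made up 51.1%, 51.2% and 56.4% in lung and at most 0.336% in the cell line. Fgfr3 held 25.7% to 29.4% in lung and 1.37% to 2.28% in the cell line, and Fgfr4 held 4.95% to 5.85% and 0.685% to 1.04%. Without Fgfr2-217 the shares of Fgfr2 in lung were 39.1%, 26.1% and 43.4%. The summed receptor level was 164 ± 95.2 TPM-like units in lung and 36.3 ± 1.54 in the cell line (SD, n = 3).

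**Figure D2:**
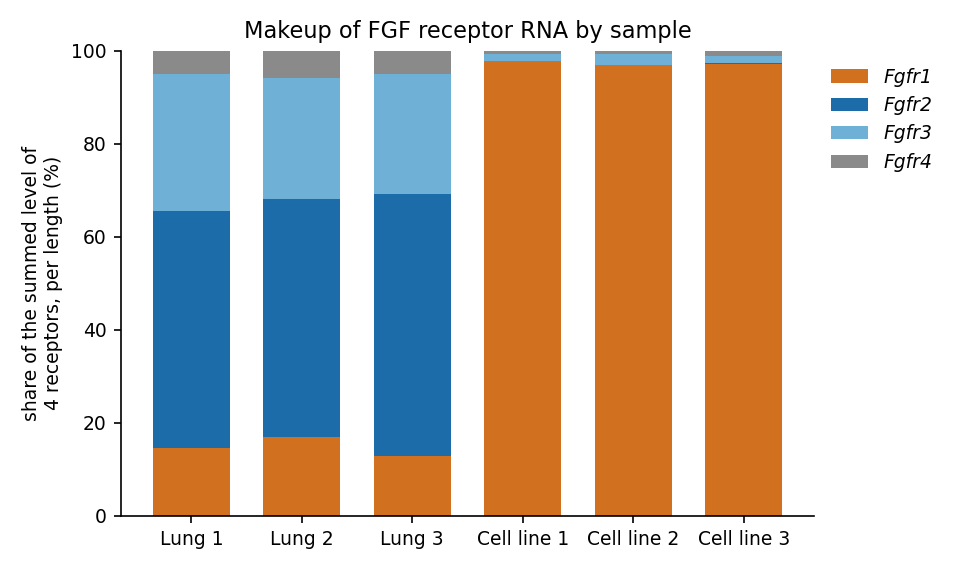
Stacked bars give the share (%) of each receptor in the summed per-length level of Fgfr1 to Fgfr4 in each of the 6 samples. Fgfr1 fills 96.9% or more of every cell line bar and 16.9% or less of every lung bar, where Fgfr2 is the largest piece.

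Among the ligands on the same per-length scale, Fgf1 led in every lung sample, at 66.0, 32.7 and 80.4 TPM-like units. Fgf2 (8.66 ± 5.03), Fgf7 (7.80 ± 3.19), Fgf18 (6.39 ± 1.91) and Fgf10 (5.68 ± 2.95) followed within each other's spread and below Fgf1 in each sample, and Fgf9 (0.650 ± 0.634) was separate from Fgf10 at the low end. In the cell line Fgf2 had the highest mean ligand level, 5.61 ± 4.20 TPM-like units, above Fgf18 (2.24 ± 1.01) and Fgf1 (2.20 ± 1.2). These 3 were ordered differently in different cell line samples, and in sample 1 Fgf18 was the highest. The 6 ligands together came to 88.9 ± 37.9 TPM-like units in lung and 10.3 ± 6.39 in the cell line (SD, n = 3).

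Transcripts of the receptors were then tested apart. Of 42 receptor transcripts, 20 passed the filter; 11 were called higher in lung and 3 lower by edgeR over 36200 transcripts, of which 33.1% were called in either direction, 19.1% higher and 14.0% lower. All 3 lower ones were of Fgfr1 (8 tested), and the higher ones were 7 of 7 for Fgfr2, 3 of 4 for Fgfr3 and 1 of 1 for Fgfr4. Transcripts of a gene share reads, so these calls are not independent of each other. The tested Fgfr2 transcripts held at most 3.06 counts in any cell line sample, and Fgfr3-215 held none. Fgfr3-205 held at most 3 counts, Fgfr3-211 held 30.9 in cell line sample 2 alone, and Fgfr4-201 held 11, 8 and 13. All 11 transcripts called higher thus passed the filter through lung alone and could hardly be called lower. Their calls add little to the gene values. With 10 or more counts in all 6 samples, 2 receptor transcripts were called, and 29.9% of all transcripts tested.

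The IIIb and IIIc forms were separated by which of the exclusive exons the annotated transcript holds. In lung, Fgfr2 was read mainly in its IIIb form: of the counts in transcripts that hold either exon, IIIb made up 86.6% (95% Wilson interval 84.9% to 88.2%, 1682 counts), 91.9% (88.2% to 94.5%, 295 counts) and 96.0% (94.9% to 97.0%, 1294 counts) in samples 1, 2 and 3. The mean was 91.5% ± 4.72 (SD, n = 3), and 93.1% when counts were divided by transcript length. The cell line had 2 such counts in all, both IIIc, so no share could be compared. The leading IIIb transcript was Fgfr2-211, at 41.8, 7.91 and 44.1 CPM in lung and with no counts in the cell line (adjusted p = 0.00479), and the leading IIIc transcript was Fgfr2-207, at 8.57, 1.05 and 2.67 CPM in lung and 2 counts in the cell line. In CPM the IIIb class of Fgfr2 was at 58.2, 12.0 and 64.6 in lung and the IIIc class at 9.0, 1.05 and 2.67. The intervals cover counting error only, and an estimated count is itself an assignment of shared reads.

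Transcripts that skip both exons took 46.5%, 74.0% and 57.1% of Fgfr2 counts in lung samples 1, 2 and 3, as the authors' quantification assigned them. Fgfr2-217 held 33.1%, 60.4% and 36.6% of the gene's counts; it has 7 exons, 5 of them the last exons of Fgfr2 (2111 of its 2425 bases) and 2 at the start that are also exons of the gene Ctbp2 (314 bases). Over most of its length its reads are therefore shared with the full-length Fgfr2 transcripts, and the table alone cannot tell how many belong to it, which limits every share taken over all Fgfr2 transcripts. Ctbp2, a transcriptional co-repressor, was at 34.2 to 43.0 CPM in lung, against at 85.9 to 106 CPM in the cell line, where Fgfr2-217 had 0 to 0.161 CPM. Fgfr2 without Fgfr2-217 was still at 90.2, 22.2 and 112 CPM in lung, against at 0.0933, 0 and 0 CPM in the cell line. Fgfr2-226, which skips both exons and is annotated as a target of nonsense-mediated decay, held 13.4%, 13.6% and 20.4% in lung. As a share of all Fgfr2 counts, IIIb came to 33.7% ± 11.2 (SD, n = 3) in lung. Lung sample 2 had the highest share of Fgfr2-217 and is the sample with fewer reads on long genes; a link between these values was not tested.

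**Figure D3:**
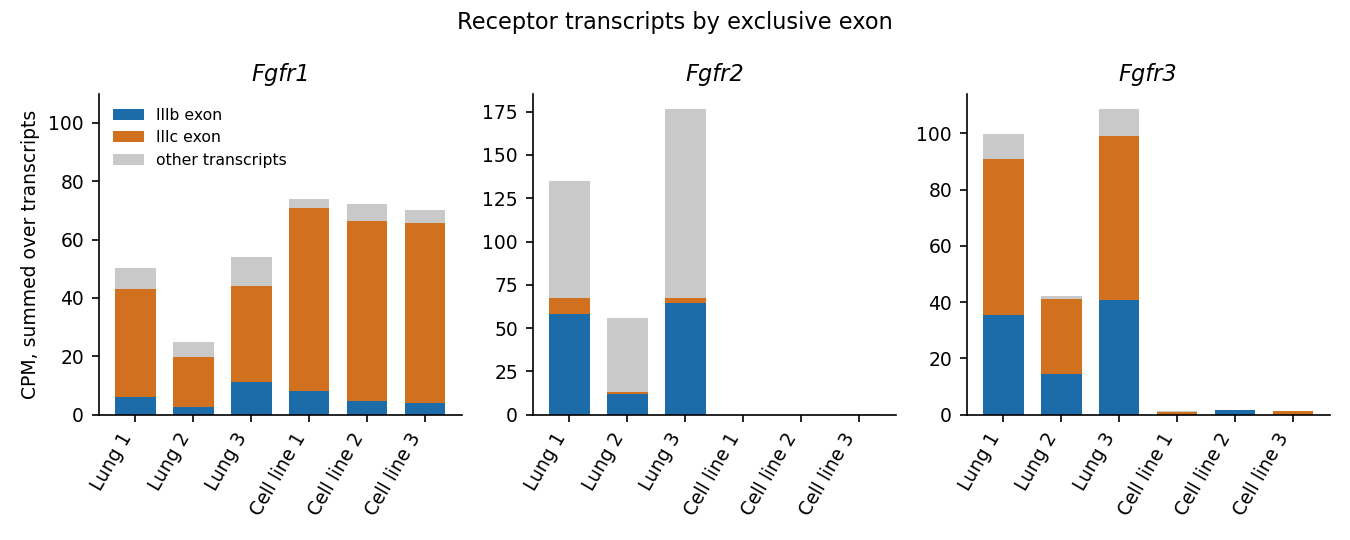
Stacked bars give CPM of Fgfr1, Fgfr2 and Fgfr3 in each of the 6 samples, split into transcripts with the IIIb exon, with the IIIc exon, and others (neither exon, both, or not reaching them). Fgfr1 is mostly IIIc in all 6 samples, Fgfr2 in lung has far more IIIb than IIIc, and Fgfr3 in lung holds both; the scales of the panels differ.

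Fgfr1 was read mainly in its IIIc form in both groups. Its IIIc class was at 37.1, 17.1 and 32.9 CPM in lung, against 62.5, 61.7 and 61.5 CPM in the cell line, while its IIIb class was at 5.98, 2.78 and 11.2 CPM in lung, against 8.22, 4.80 and 4.04 CPM in the cell line. The IIIc values of the groups did not overlap and the IIIb values did. IIIb made up 13.9%, 14.0% and 25.3% of the 2 classes in lung and 11.6%, 7.22% and 6.17% in the cell line, means of 17.7% ± 6.57 and 8.34% ± 2.89. Every lung share was above every cell line share, and the exact two-sided permutation test gave p = 0.1, the smallest that 3 against 3 samples allow.

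Among the Fgfr1 transcripts with 10% or more of the gene, 2 IIIc ones fell in lung. Fgfr1-202 fell by 1.81 on the log2 scale (SE 0.30, adjusted p = 0.00605) and Fgfr1-203 by 1.22 (SE 0.37, adjusted p = 0.0451); the second call was lost under 11 of 14 alternatives, while that of Fgfr1-202 was kept in all 14. Fgfr1-201 and the IIIb transcript Fgfr1-213 had log2 fold changes of -0.13 (SE 0.40, adjusted p = 0.837) and 0.02 (SE 0.56, adjusted p = 0.983) and were not called. The first immunoglobulin-like loop, coded by an exon of 267 bases that Fgfr1 transcripts keep or skip, was kept in 41.5%, 52.1% and 43.6% of the counts in lung and 49.2%, 52.1% and 47.6% in the cell line, taken over the Fgfr1 transcripts of coding or decay type that span its place. Those shares overlapped (exact two-sided permutation p = 0.4).

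Fgfr3 in lung was read in both forms, with IIIb at 39.0%, 34.9% and 41.2% of the 2 classes. Its main transcripts there were Fgfr3-211 (IIIb) at 35.4, 14.3 and 40.7 CPM, Fgfr3-209 (IIIc) at 35.4, 3.18 and 14.7 CPM and Fgfr3-215 (IIIc) at 16.0, 23.2 and 25.8 CPM. Fgfr3-215 had no counts in the cell line and was called higher in lung (adjusted p = 0.00162), and Fgfr3-211 was called too (adjusted p = 0.0403), a call lost under 7 of 14 alternatives. Fgfr3-209 was not called (adjusted p = 0.0529), and 5 of 14 alternatives called it. The IIIb shares lay between those of Fgfr2 and Fgfr1 in each lung sample. In the cell line the few Fgfr3 counts were assigned all to IIIc in sample 1 (22 counts), all to IIIb in sample 2 (31 counts) and all to IIIc in sample 3 (24 counts), so no share is read from them. Over Fgfr1, Fgfr2 and Fgfr3 together, IIIb transcripts were at 99.6, 29.1 and 116 CPM in lung, against 8.22, 6.58 and 4.04 CPM in the cell line. The value of cell line sample 2 includes 1.78 CPM from its uncertain Fgfr3 assignment. IIIc transcripts were at 102, 45.0 and 93.8 CPM in lung, against 63.6, 61.7 and 62.8 CPM in the cell line. The IIIb sums were thus separate between groups, with 39.3% to 55.4% IIIb in lung and 6.05% to 11.4% in the cell line, while the IIIc sums overlapped.

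The factors known to choose between these exons were measured too. Esrp1, an epithelial splicing factor that promotes the IIIb exon, was at 17.6, 7.83 and 30.0 CPM in lung, against 0.280, 0.173 and 0.0527 CPM in the cell line, a count ratio of 103 (95% interval of counting error 56.0 to 216) and a change of 6.70 (SE 0.72, adjusted p = 0.000172). Its relative Esrp2, with the same activity, was at 39.4, 28.2 and 39.0 CPM in lung, against 24.9, 36.2 and 40.1 CPM in the cell line, and its change of 0.08 (SE 0.28) did not pass the test (adjusted p = 0.838). Ptbp1, a repressor of the IIIb exon, fell in lung by 1.26 on the log2 scale (SE 0.30, adjusted p = 0.00874). Rbfox2, which acts on this exon pair by silencing IIIc, fell by 1.06 (SE 0.37, adjusted p = 0.0448), a call lost under 6 of 15 alternatives. Of the 4 factors, 1 rose and 2 fell, and only 1 of the 2 falls was called without lung sample 3 or without any of the cell line samples. Over all genes tested, 31.3% were called higher in lung and 17.5% lower.

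Around the receptors and ligands, 77 other genes of the pathway were read in 7 lists, of which 72 were in the table and 59 were tested. In lung 15 rose and 17 fell, which makes 54.2% called beside 48.8% of all genes tested, and their median change was -0.26. The pathway at large was therefore called about as often as other genes and in both directions. Without lung sample 2 and cell line sample 1, 51 were called in place of 32, and 78.4% of all genes tested were called in that fit.

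**Figure D4:**
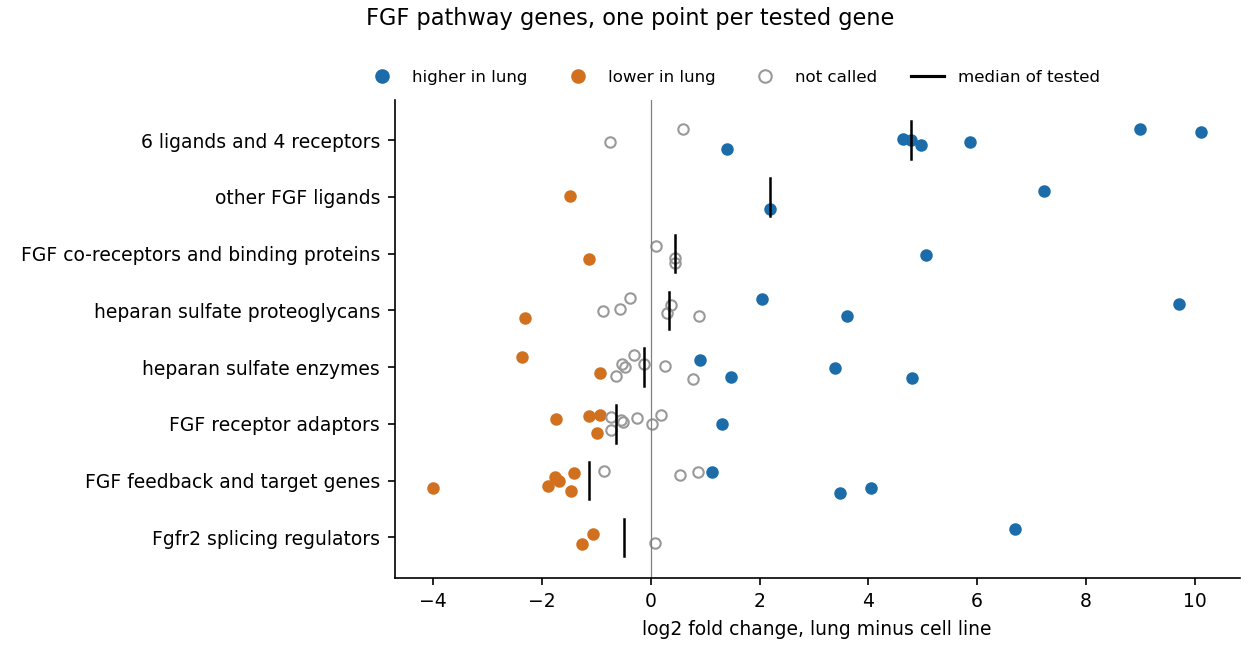
Each point is the log2 fold change (lung minus cell line) of a tested gene, in 1 row for the ligands and receptors described here and 1 for each of the 7 other lists; filled blue is called higher, filled orange lower, open grey not called, and the black line is the median of the tested genes. Most of the points of the top row lie far to the right, and those of the feedback list lie mostly to the left with a median of -1.14.

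Of 16 other FGF ligands 12 were in the table and 3 were tested. Fgf11, an intracellular FGF, rose by 2.20 on the log2 scale (SE 0.50, adjusted p = 0.00700), from 1.51 ± 0.254 to 6.94 ± 3.57 CPM (SD, n = 3). Fgf12, of the same intracellular family, had 61 counts in lung and none in the cell line. Set against 3 counts over the group, it was at least 17.6-fold higher. Fgf13, also of that family, went the other way, from 8.63 ± 0.224 to 3.07 ± 0.440 CPM (-1.49, SE 0.29, adjusted p = 0.00350). All 3 that passed the filter belong to the family that is not secreted. With no filter, the secreted ligands Fgf16 and Fgf23 were called higher too (adjusted p = 0.0239 and 0.0211), on 22 and 23 lung counts, and Fgf5 was called lower (adjusted p = 0.00744). Fgf5 had 20 cell line counts and none in lung, where it was at least 7.72-fold lower.

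Co-receptors and binding proteins showed 1 rise and 1 fall among 5 tested of 8, which makes 40% called beside 48.8% of all genes tested. Flrt2, a membrane protein that binds FGF receptors, rose from 0.399 ± 0.324 to 13.7 ± 6.21 CPM (5.06, SE 0.68, adjusted p = 0.000499; 5.90 without cell line sample 1). Fgfrl1, a receptor-like protein that lacks the kinase domain, fell from 31.9 ± 6.36 to 14.6 ± 0.716 CPM (-1.13, SE 0.25, adjusted p = 0.00572). Flrt3 (0.45, SE 0.32, adjusted p = 0.265) and the carrier proteins Fgfbp1 (0.45, SE 0.79, adjusted p = 0.664) and Fgfbp3 (0.09, SE 0.37, adjusted p = 0.852) did not pass the test. Fgfbp1 rested on cell line sample 1, at 12.5 CPM beside 1.15 and 1.79 CPM in the others, and was called higher without it (2.24, adjusted p = 0.00321). The endocrine co-receptors Kl and Klb and the receptor partner Flrt1 were below the filter.

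Heparan sulfate, the co-factor of FGF binding, was represented by its core proteins and its enzymes. Of 10 core proteins tested, 3 rose and 1 fell, against 5 and 2 without lung sample 2 and 3 and 2 without cell line sample 1. With all samples, 40% of the core proteins were called, beside 48.8% of all genes tested. Gpc3, a glypican, was at 112, 54.8 and 152 CPM in lung, against 0.233, 0.115 and 0 CPM in the cell line, a count ratio of 859 (95% interval of counting error 417 to 2138). Sdc2, a syndecan, rose from 15.5 ± 0.426 to 64.4 ± 13.4 CPM (2.05, SE 0.26, adjusted p = 0.000326), while Gpc1 fell from 159 ± 32.8 to 32.0 ± 5.39 CPM (-2.31, SE 0.28, adjusted p = 0.000291). Of the glypicans tested, Gpc3 and Gpc4 rose, Gpc1 fell and Gpc2 was not called. Gpc4 was at 14.1 ± 4.74 CPM in lung, against 1.15 ± 0.273 CPM in cultured cells (SD, n = 3, adjusted p = 0.000213). Of 13 enzymes tested, 4 rose and 2 fell, with 1 fall left without cell line sample 2 or 3. The share of enzymes called with all samples was 46.2%, also beside 48.8% of all genes tested. The extracellular sulfatases Sulf1 (3.39, SE 0.43, adjusted p = 0.000388) and Sulf2 (4.80, SE 0.49, adjusted p = 0.000132), which remove 6-O-sulfate groups, both rose, and the sulfotransferase Hs6st2, which adds such groups, fell from 32.3 ± 2.37 to 6.28 ± 1.15 CPM (-2.36, SE 0.26, adjusted p = 0.000175).

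Of 12 adaptors behind the receptors 4 fell and 1 rose, with a median change of -0.65. These counts were 2 and 0 without cell line sample 2 or without sample 3, 3 and 0 without lung sample 1 or 3, and 2 and 1 with library size alone. With all samples, 41.7% of the adaptors were called, beside 48.8% of all genes tested. Shc1 fell by 1.13 on the log2 scale (SE 0.29, adjusted p = 0.0134) and Crk by 0.93 (SE 0.27, adjusted p = 0.0230), while Gab1, a docking protein, rose by 1.31 (SE 0.43, adjusted p = 0.0341). The call of Crk was lost under 5 of 15 alternatives and that of Gab1 under 4 of 15.

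Feedback and target genes of FGF and MAP kinase signalling fell in 6 of 12 cases and rose in 3, with a median change of -1.14. Without lung sample 2 the counts were 7 and 5, and without any other single library 6 and 2. With all samples, 75% of this list was called. Of all genes tested, 48.8% were called, 17.5% lower and 31.3% higher. Dusp6, a phosphatase of the MAP kinase Erk, fell from 312 ± 115 to 118 ± 12.4 CPM (-1.40, SE 0.34, adjusted p = 0.00938). Dusp4, a related phosphatase, was at 307, 111 and 110 CPM in the cell line and 12.9, 6.28 and 13.8 CPM in lung (-4.0, SE 0.54, adjusted p = 0.000536; -3.34 without cell line sample 1). The transcription factor Etv1 rose from 0.622 ± 0.0392 to 10.1 ± 4.03 CPM (4.05, SE 0.45, adjusted p = 0.000195). The other genes called lower were Spry2, Spred2, Spred3 and Etv4, and the others called higher were Spry1 and Etv5, so both the Sprouty and the Etv families held members that rose and members that fell.

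The genes whose pattern over the 6 samples was most like each receptor were taken by root mean square distance of log2(CPM + 0.5), each gene centred on its own mean, among 14387 genes. For Fgfr2 they were Itih4 (distance 0.083), Spock2 (0.19) and Tek (0.24), and for Fgfr3 Egflam (0.098), Sgpp2 (0.13) and Cmklr1 (0.13). For Fgfr4 they were Cybrd1 (0.063), Myrip (0.10) and Adra1a (0.10), all higher in lung like the receptor. Genes near Fgfr1 were Arid1b (0.041) and Klhl20 (0.048). Arid1b, for example, was at 50.7 ± 17.6 CPM in lung, against 86.7 ± 4.31 CPM in the cell line (SD, n = 3). All 6 samples share their depth and library differences, lung sample 2 included, so likeness over them is a description only.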

How the data were processed

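The authors deposited a table of estimated counts per transcript for 6 samples. The submitters' processing notes name Salmon 1.4.0, FastQC 0.11.9, DESeq2 1.32.0 and GRCm39; what DESeq2 did, the annotation release and the strand setting are not given in the sources used. Per the labels' protocols, lungs were digested with collagenase, total RNA was cleaned on columns and a stranded mRNA kit was used, and Nugen amplification before hybridization is also mentioned; the same text stands on the cell line samples.

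Transcript identifiers were matched to GENCODE M21 (76521 of 76776; the 255 others, with 0.11% to 0.42% of a sample's counts, were left out), used for names, exon structure, lengths and exon sequences. Counts were summed per gene, rounded and tested with edgeR 4.0.16 in R 4.3.3 (quasi-likelihood F test, robust, TMM, filterByExpr). The fit held no replicate block, since same-numbered samples did not deviate together. A count of 0 allows up to 3 counts, 0.120 to 0.173 CPM by sample. Simulated data were made from both groups, with few genes or transcripts changed. There edgeR recovered 9% of 2-fold and 72% of 4-fold changes over 15009 genes, with 3.6% false calls. Over 33893 transcripts it recovered 0% and 6%. In the real data 48.8% of genes and 33.1% of transcripts were called, and the adjustment is stricter where few features change. The recovery rates therefore do not give the power of the fits above. An uncalled transcript is not read as unchanged.

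The members, gene lists and tests were chosen with earlier results of these data known. Named were all members, receptor transcripts with 10% or more of their gene, from each list the 2 called genes with the highest CPM in the majority direction and the 1 with the largest change in the other, all tested co-receptors and splicing factors, and the 3 nearest genes per receptor. A few items under this rule are not reported here. Fgf5, Fgf16, Fgf23, Gpc4, Hs6st1, Ctbp2, Nudt6, the form shares of Fgfr1 and Fgfr3, the first-loop shares and the further feedback genes were added after their values were seen. The alternatives used size factors from DESeq2, no scaling beyond library size, no filter, 10 counts or more in each of the 6 samples, limma-voom (limma 3.58.1), a Wald test (DESeq2 1.42.0), a replicate block, length offsets, and samples left out. Leaving out Fgfr2-217 was chosen after seeing the data.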

Additional observations from a re-analysis of the deposited data

How the results depend on the processing

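Of 647 fold changes under alternative settings, 575 kept their direction and side of the threshold, 41 lost a call, 11 gained one and 20 reversed. Of 275 counts and shares, 233 stayed within 1.5 times the reported count (shares within 1 SD) and 42 moved further. The 6 calls of Fgf1, Fgf7, Fgf10, Fgfr2, Fgfr3 and Fgfr4 were kept in each of the 14 or 15 alternatives that tested them. Members higher came to 3 with 10 or more counts in all 6 samples, a filter that leaves 5 members to test, and members lower to 1 (Fgfr1) without lung sample 2, alone or together with cell line sample 1. With samples left out in turn, members higher ranged from 6 to 8, members lower from 0 to 1, pathway genes called from 25 to 39, receptor transcripts called from 11 to 16 and the Fgfr2 IIIb share from 89.3% to 94.0%. Fgf9 passed the filter in 6 alternatives and was called higher in 5 of them. Pathway genes called came to 51 with both samples left out (78.4% of all genes tested were called there, against 48.8%), receptor transcripts to 2 with 10 or more counts in all 6 samples, where fewer transcripts are tested, and the IIIb share to 33.7% over all Fgfr2 transcripts, a larger denominator. With the replicate block, 7 members were higher and 0 lower, and 34 pathway genes and 10 receptor transcripts were called; same-numbered samples correlated at -0.048, 0.087 and -0.097 in their deviations. Without Fgfr2-217, chosen after seeing the data, the mean share of Fgfr2 in the 4 receptors in lung was 36.2%, against 52.9%. Length offsets were not run for transcripts.

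The reversed log2 fold changes are of genes and transcripts that were not called. With samples left out in turn, Fgfbp1 ranged from -0.083 to 2.24, Fgfbp3 from -0.17 to 0.27, Esrp2 from -0.11 to 0.16, Fgfr1-201 from -0.40 to 0.30 and Fgfr1-213 from -0.45 to 0.53. Without both samples, Fgfbp3 was at -0.26 and Fgfr1-201 at 0.32. Esrp2 was at -0.00098 with no filter. Fgfr1-201 was at 0.040 with either DESeq2 size factors or the DESeq2 test, 0.24 with library size alone and 0.21 with 10 counts in all samples. Fgfr1-213 was at -0.028 with no filter, -0.05 with limma-voom and -0.060 with the replicate block.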
